A study of Mus musculus with 4 samples.

Results

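Gpm6a, Upk3b, Msln, Wt1, Upk1b and Igfbp5 are 6 genes used as markers of the mesothelium, the single layer of flat cells that covers the lung and lines the pleural cavity. They were chosen by symbol: every probe set annotated with 1 of these names and no other was taken, which gave 12 of 45101 probe sets and 6 of 18193 genes. The cells profiled were sorted not as mesothelium but as alveolar epithelial type II cells (AEC2), which make the lung's surfactant. They had been isolated from mouse lungs by flow sorting, and whether other cells were carried along was not tested. The 4 groups were Tlr4-/- mice at day 4 after bleomycin, wild-type mice at day 4 after bleomycin, untreated Tlr4-/- mice and untreated wild-type mice. Bleomycin is a drug that injures the lung epithelium, and TLR4 is a receptor of innate immunity. Each group was 1 array, hybridised with RNA from 1 pool of the cells of 4 to 5 mice, so no spread between pools of a group was measured. The Tlr4 allele and the age, strain and sex of the mice are not stated by the sources used here, and the labels name no cell type to which the deletion was restricted.

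Mesothelial cells make lubricating fluid, anchor a basement membrane and, in the developing lung, give rise to some of the mesenchymal cells beneath them. MSLN is a cell surface glycoprotein held by a lipid anchor, and it binds the mucin MUC16. WT1 is a zinc finger transcription factor of mesothelial cells and of kidney podocytes. UPK3B and UPK1B belong to the uroplakins, membrane proteins first described in the bladder lining, and UPK1B is a tetraspanin. GPM6A is a membrane protein of the proteolipid family that is also abundant in neurons, and IGFBP5 is a secreted binding protein of insulin-like growth factors that fibroblasts and smooth muscle cells make too.

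Values are log2 signals per gene, averaged over its probe sets, and levels are compared only between arrays, never between genes. Array medians lay between 6.93 and 6.98. The spread expected between 2 arrays without an effect was a standard deviation of 0.23 (log2), taken from the limma fit, not from replicate pools. It is 1 value for all genes, so a difference beyond it is a description and no test. The share of all genes beyond it was not counted. The limma fit used the 9096 genes with a mean above the median gene, so dimmer genes, Upk1b and Wt1 among them, did not enter it. The surfactant gene Sftpc read 14.05 and 14.06 on the Tlr4-/- and wild-type day 4 arrays and 14.02 and 14.03 on the Tlr4-/- and wild-type untreated arrays, and the 9 AEC2 markers on the array averaged between 12.4 and 12.6 on all 4. Sftpc, Sftpb, Sftpd, Slc34a2 and Sftpa1 had means at or above percentile 99.9 of all genes, and whether their probes were saturated was not tested. The dimmer Etv5, an AEC2 transcription factor gene, read 11.56 and 12.10 on the Tlr4-/- and wild-type day 4 arrays and 12.14 and 12.08 on the Tlr4-/- and wild-type untreated arrays. Of 4 Tlr4 probe sets, 1 was lower on the Tlr4-/- arrays, by 6.42-fold at day 4 and 3.09-fold untreated, while 2 were higher there. The sources used here do not say where the deletion lies relative to the probe sets. Eif2s3y, which lies on the Y chromosome, was 2.01 higher at day 4 than in untreated cells in Tlr4-/- and 2.04 higher in wild type, and the part of sex in the results below was not tested.

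All 6 genes had their lowest signal in the untreated Tlr4-/- pool, and all 6 had their highest in the wild-type day 4 pool. Msln, measured by 1 probe set, read 9.13 on the Tlr4-/- day 4 array, 9.22 on the wild-type day 4 array, 7.27 on the Tlr4-/- untreated array and 8.11 on the wild-type untreated array. Both day 4 arrays were above both untreated arrays, and the day 4 arrays differed from each other by less than the spread.

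Gpm6a read 8.44 in the Tlr4-/- and 8.80 in the wild-type day 4 pool, against 5.67 and 7.82 in the Tlr4-/- and wild-type untreated pools. It varied most of the 6, and the Tlr4-/- untreated pool stood below the other 3 arrays. The uroplakin gene Upk3b read 8.37 in the Tlr4-/- and 8.88 in the wild-type day 4 pool, against 6.75 and 8.26 in the Tlr4-/- and wild-type untreated pools. Here the Tlr4-/- day 4 pool exceeded the wild-type untreated pool by less than the spread.

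Igfbp5 read 9.38 in the Tlr4-/- and 10.05 in the wild-type day 4 pool, against 8.02 and 9.43 in the Tlr4-/- and wild-type untreated pools. It was the only member in which the treatments overlapped, since the wild-type untreated pool lay 0.05 above the Tlr4-/- day 4 pool. Upk1b read 6.70 in the Tlr4-/- and 6.81 in the wild-type day 4 pool, against 5.53 and 6.08 in the Tlr4-/- and wild-type untreated pools. Both day 4 arrays were above both untreated arrays.

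Wt1, the transcription factor of the list, was dim throughout. Its probe set read 4.61 and 4.77 in the Tlr4-/- and wild-type day 4 pools and 4.32 and 4.56 in the Tlr4-/- and wild-type untreated pools, with a mean at percentile 10.7 of all probe sets. Without detection calls, a signal of that size cannot be told from background, although its order over the arrays was that of Msln. Gpm6a, Upk3b, Msln and Igfbp5 exceeded the filter of a mean log2 signal of 7.05 (the median gene), with Upk1b and Wt1 below it. The filter mean includes the day 4 arrays, and on the untreated Tlr4-/- array Gpm6a (5.67) and Upk3b (6.75) read below 7.05. Passing it does not show which cells the signal came from.

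**Figure D1:**
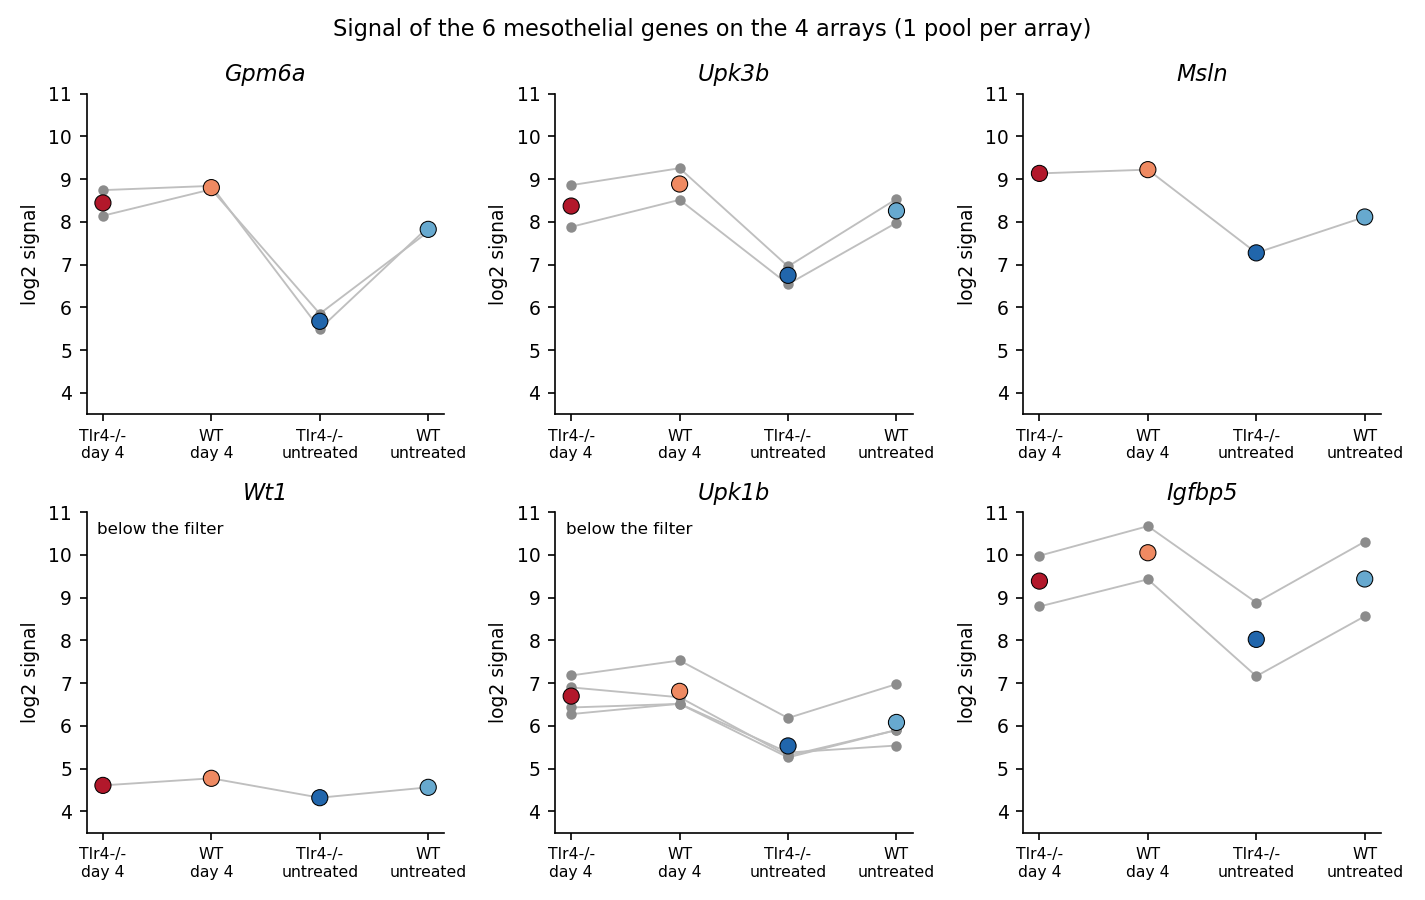
Log2 signal (vertical axis) of each member on the 4 arrays (horizontal axis), 1 pool of mice per array; large points are gene averages and small grey points joined by lines are single probe sets. In every panel the untreated Tlr4-/- array is the lowest, and Wt1 stays between 4.32 and 4.77.

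The order wild type day 4, Tlr4-/- day 4, wild type untreated and Tlr4-/- untreated, from high to low, held for 5 of the 6 genes and for 3.38% of all genes. The untreated Tlr4-/- array was the lowest for 6 of 6 and for 20.3% of all genes. Upk3b and Igfbp5 had the most similar profiles, with a Euclidean distance of 0.18 between their 4 mean-centred values, and Gpm6a and Igfbp5 the least similar of the 4 genes above the filter, with 1.05. The order and the lowest array were read from the members themselves, so their shares among the members are no independent evidence. These counts and distances are descriptions over 4 arrays, with no test.

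Probe sets of 1 gene went the same way in nearly every comparison. All 12 were higher after bleomycin in both genotypes, and all 12 were lower in untreated Tlr4-/- than in untreated wild type. At day 4, 11 were lower in Tlr4-/- and 1 was higher, a probe set of Upk1b (6.90 against 6.67 in wild type). Its name carries the suffix _x_at, which Affymetrix gives to sets with probes that may bind other transcripts too. The sizes differed more than the directions. In Tlr4-/- the bleomycin difference was 2.29 by one Gpm6a probe set and 3.24 by the other, and 1.10 and 1.63 by those of Igfbp5, while in wild type the Gpm6a probe sets gave 0.99 and 0.96. Of the 4 Upk1b probe sets, both _x_at sets were listed at the same 5.90 on the wild-type untreated array and differed on the other 3.

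For 3 members RefSeq promoter sequence was at hand (build GRCm38.p6), and the 250 bases before the annotated start are shown for these. The Gpm6a sequence is chr8:54779184-54779433 on the plus strand, from the first of its 2 listed starts, the Upk3b sequence is chr5:136038246-136038495 on the plus strand, and the Igfbp5 sequence is chr1:72874866-72875115 on the minus strand. Capitals mark GGAATG, or CATTCC where it lies on the other strand, the core bound by TEAD factors, which act in many tissues, mesothelium included. The motif was chosen with these sequences already in view.
Gpm6a: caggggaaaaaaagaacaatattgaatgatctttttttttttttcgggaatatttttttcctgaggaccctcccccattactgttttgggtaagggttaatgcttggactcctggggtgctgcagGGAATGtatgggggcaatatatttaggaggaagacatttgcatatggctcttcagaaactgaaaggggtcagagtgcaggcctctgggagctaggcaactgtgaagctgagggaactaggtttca
Upk3b: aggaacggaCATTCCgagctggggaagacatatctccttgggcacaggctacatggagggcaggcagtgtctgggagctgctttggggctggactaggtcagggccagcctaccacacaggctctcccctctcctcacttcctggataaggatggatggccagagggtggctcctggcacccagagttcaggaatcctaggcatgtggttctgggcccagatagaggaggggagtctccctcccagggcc
Igfbp5: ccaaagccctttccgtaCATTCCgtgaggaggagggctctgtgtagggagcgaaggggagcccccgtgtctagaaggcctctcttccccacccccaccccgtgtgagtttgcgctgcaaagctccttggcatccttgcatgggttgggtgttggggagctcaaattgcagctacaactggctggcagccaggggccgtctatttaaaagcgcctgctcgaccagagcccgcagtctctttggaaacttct
Each of the 3 sequences held the motif once, at 125, 241 and 233 bases before the start in Gpm6a, Upk3b and Igfbp5, as did 12.6% of 32851 promoter windows of the same length. It was not found before the second Gpm6a start. The letters GCGTGGG, searched on both strands, a core shared by WT1 and EGR factors, were in none of these 4 windows and in 4.30% of all windows. The third motif searched, the TATA box letters TATAAA on either strand, was once before the second Gpm6a start, in none of the 3 sequences shown and in 12.4% of all windows. A match of letters is a description and does not show that a factor binds there.

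After bleomycin, the mesothelial genes above the filter rose in the average over both genotypes. The additive limma model with treatment and genotype called 4 of 4, beside 7.18% of the 9096 genes tested that were called higher. Gpm6a rose by 1.87 ± 0.30 (SE, limma, 2 array pairs, adjusted p = 0.00162), Msln by 1.48 ± 0.19 (adjusted p = 0.000324), Upk3b by 1.12 ± 0.21 (adjusted p = 0.00479) and Igfbp5 by 0.99 ± 0.19 (adjusted p = 0.00552). Each was higher in 2 of 2 genotypes, as were 3539 of the 9096 genes tested. The untreated signals of Gpm6a, 5.67 and 7.82, average below the filter of 7.05, so it entered the tested set only through its day 4 signals. Its call, and its place among the 4, are thus no independent evidence. Adjusted p-values of this fit may be too small, since in simulated data of the same design the share of false calls was above the threshold in most runs. Upk1b and Wt1 were not tested at this filter and differed by 0.95 and 0.25 on average. In the fit over all 18193 genes only Msln was called higher among the 6 (adjusted p = 0.0361), beside 1.75% of all genes, with an adjusted p of 0.0548 for Upk1b, 0.0902 for Igfbp5, 0.0989 for Gpm6a, 0.101 for Upk3b and 0.371 for Wt1. Without the untreated Tlr4-/- array, a fit with treatment alone gave 1.06 for Msln, 0.80 for Gpm6a, 0.37 for Upk3b and 0.28 for Igfbp5. It sets both day 4 pools against the wild-type untreated pool alone, so it mixes treatment with genotype. The fits without 1 of the day 4 arrays mix them too. Without either day 4 array no member was called (0 of 4), and of all genes 0 were called higher without the Tlr4-/- day 4 array and 18 without the wild-type day 4 array.

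Taken genotype by genotype, the differences were larger in Tlr4-/-. There, 5 of 6 passed a 2-fold increase at day 4, beside 1.88% of all genes, and in wild type 1 of 6 did, beside 1.82%. Gpm6a was 6.81-fold higher after bleomycin in Tlr4-/- and 1.97-fold in wild type. For Msln the fold was 3.63 in Tlr4-/- and 2.15 in wild type. For Upk3b it was 3.07 in Tlr4-/- and 1.54 in wild type, for Igfbp5 2.57 in Tlr4-/- and 1.53 in wild type, and for Upk1b 2.24 in Tlr4-/- and 1.66 in wild type. The response in Tlr4-/- minus that in wild type was positive in 6 of 6, at 1.79 for Gpm6a, 0.99 for Upk3b, 0.75 for Msln and for Igfbp5, 0.44 for Upk1b and 0.08 for Wt1. Over all genes its median was -0.03. Only Gpm6a passed 2-fold in that measure, as did 0.868% of all genes. The median over the 6 genes was 1.49 in Tlr4-/- and 0.68 in wild type, where the median over all genes was -0.03 and 0.00. With 1 array per group this difference between the responses has no test.

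**Figure D2:**
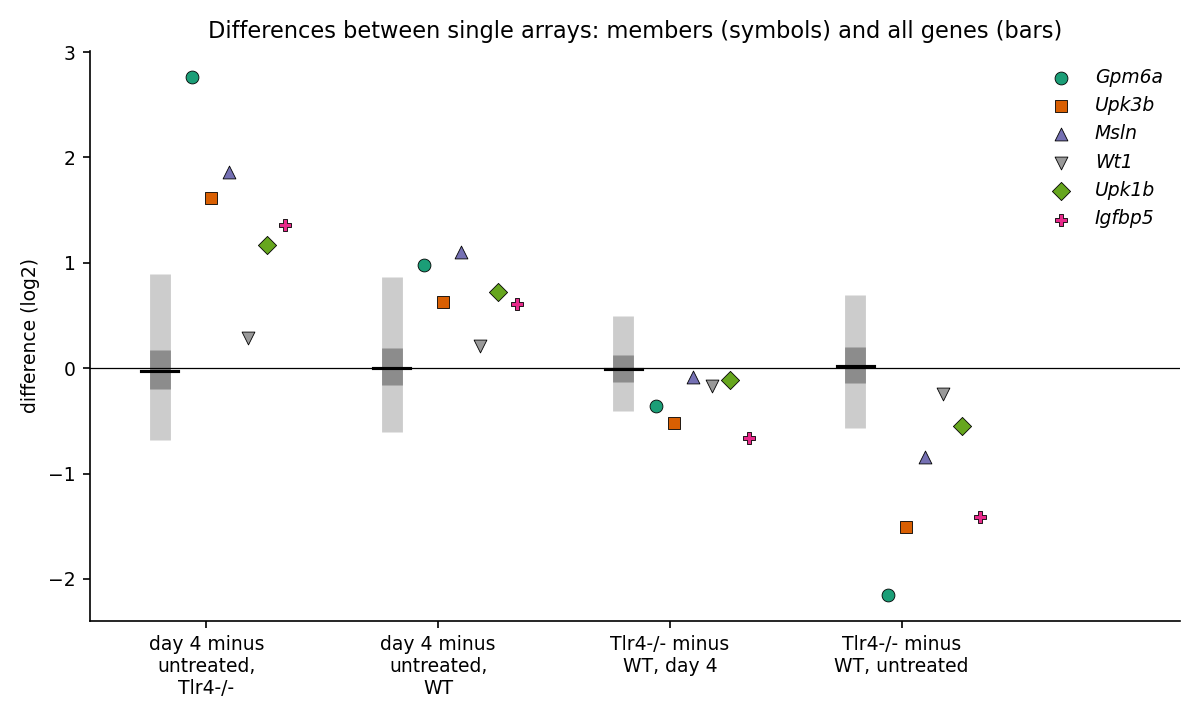
Differences in log2 signal (vertical axis) between single arrays for 4 comparisons (horizontal axis); coloured symbols are the 6 members, light and dark bars hold the central 95% and 50% of all 18193 genes, and the black tick is their median. Gpm6a reaches 2.77 for bleomycin in Tlr4-/- and -2.15 for genotype in untreated pools, and Wt1 lies closest to 0 in 3 of the 4 comparisons.

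Without bleomycin, all 6 genes had lower signals in the Tlr4-/- pool than in the wild-type pool, as did 8428 of all 18193 genes. Gpm6a was 4.44-fold lower, Upk3b 2.84-fold, Igfbp5 2.66-fold, Msln 1.79-fold and Upk1b 1.46-fold, each beyond the spread. Thus 3 of 6 were at least 2-fold lower, beside 0.462% of all genes. Upk1b lay outside the fit that gave the spread, and 1 of its 4 probe sets differed by only -0.16. For Wt1, which cannot be told from background, no fold is given. The untreated Tlr4-/- array enters both this difference and the bleomycin difference in Tlr4-/-, so its low signals appear in both.

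At day 4 the same genes were closer between the genotypes. Igfbp5 was lower in Tlr4-/- by 0.66, Upk3b by 0.52 and Gpm6a by 0.36. Each was beyond the spread of 0.23 shared by all genes, but Gpm6a had the largest SE of the tested members in the fit (0.30). The differences of Wt1, Upk1b and Msln were -0.17, -0.11 and -0.09. None of the 6 genes was 2-fold lower (0 of 6), and 0.0495% of all genes were. Across both treatments limma called 0 of the 4 tested members for genotype, as it called 0% of all genes, with 822 genes, and all 4 of these members, at an unadjusted p under 0.05. The Tlr4-/- minus wild-type difference was -1.04 ± 0.19 for Igfbp5 (SE, limma adjusted p = 0.153) and -1.01 ± 0.21 for Upk3b (adjusted p = 0.166). It was -1.25 ± 0.30 for Gpm6a (adjusted p = 0.214) and -0.46 ± 0.19 for Msln (adjusted p = 0.479). Each gene was lower in 2 of 2 treatments, as were 1808 of the 9096 genes tested.

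The list of 20 other mesothelial genes followed in part. Of these, 7 passed the filter, and limma called 2 that rose and 0 that fell after bleomycin. Krt19, a keratin of simple epithelia and mesothelium, rose by 0.996 ± 0.16 (SE, adjusted p = 0.0017), and Anxa8, an annexin, by 1.17 ± 0.20 (adjusted p = 0.00275). The untreated signals of Anxa8, 6.698 and 7.406, average just below the filter of 7.055, so it passed only through its day 4 signals. The fibulin gene Efemp1 was higher by 0.53 ± 0.17 and did not pass (adjusted p = 0.065). In the fit over all 18193 genes, 4 of the 20 were called higher, beside the same 1.75% of all genes, and 0 lower. These were Lrrn4, a leucine-rich repeat gene of mesothelium, Prg4, which encodes lubricin, Aldh1a2, an enzyme of retinoic acid synthesis, and Krt19. Anxa8 was not called in that fit (limma adjusted p = 0.082).

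Lrrn4 had the pattern of the 6 members most closely. It read 6.60 and 7.35 in the Tlr4-/- and wild-type day 4 pools and 5.14 and 6.07 in the Tlr4-/- and wild-type untreated pools. Muc16, the mucin that binds MSLN, read 6.30 and 6.54 at day 4 in Tlr4-/- and wild type, and 5.76 and 6.20 untreated. Lrrn4 and Muc16 were the 2 of 20 with the full order of the members. The untreated Tlr4-/- array was lowest in 11 of the 20, and 14 of the 20 were higher after bleomycin in both genotypes, as were 6 of 6 members and 30% of all genes. Among those that departed from the members' pattern were Prg4 and Aldh1a2, with signals of 6.44 and 6.30 in untreated Tlr4-/- against 6.11 and 6.11 in untreated wild type. Krt19 was another, at 11.02 in Tlr4-/- against 10.63 in wild type at day 4 and 9.90 against 9.77 untreated. Of the 20, 8 were lower in Tlr4-/- in both treatments, as were 6 of 6 members and 4822 of all 18193 genes. The list's median bleomycin difference was 0.38 in Tlr4-/- and 0.25 in wild type, and its median genotype difference was 0.01 at day 4 and -0.25 untreated. Calb2, the calretinin gene, was lower by 0.21 on average after bleomycin and was below the filter. Cldn15, a claudin, was higher by 0.35 in Tlr4-/- and lower by 0.54 in wild type.

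**Figure D3:**
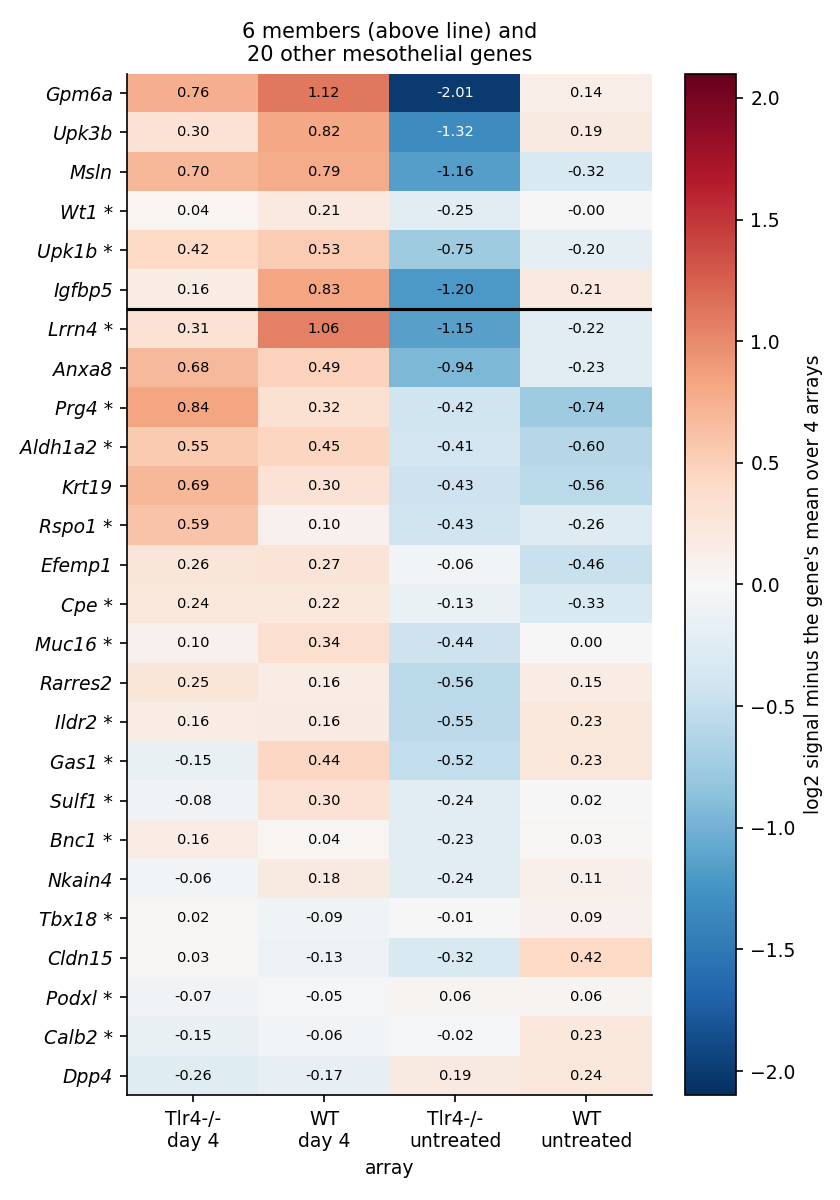
Log2 signal of 26 genes (rows) on the 4 arrays (columns) after subtracting each gene's mean over the arrays, red above and blue below it; the members stand above the line, and an asterisk marks genes below the filter. The untreated Tlr4-/- column is lowest for all 6 members and for 11 of the 20 other genes.

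Among the other genes of the members' families there was 1 call in each direction. Of the 3 other uroplakin genes, only Upk2 passed the filter, and it was lower by 0.25 ± 0.16 after bleomycin (adjusted p = 0.39). Upk1a and Upk3a differed by 0.04 and 0.15. Gpm6b, the close relative of Gpm6a, was below the filter and lower after bleomycin by 0.59 in Tlr4-/- and 0.71 in wild type. Among 13 other genes of the insulin-like growth factor axis, 6 passed the filter, 1 rose and 1 fell, and of all genes tested 2.53% fell. Igfbp4 rose by 1.08 ± 0.16 (SE, limma adjusted p = 0.000913) and Igfbp7 fell by 0.57 ± 0.16 (adjusted p = 0.0389). The ligand gene Igf2 was higher by 0.53 ± 0.16 without passing (adjusted p = 0.055), and the receptor gene Igf1r, below the filter, was lower by 0.35.

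Other cell types' markers changed over the same arrays. In bulk RNA, fewer cells of a type and less RNA per cell cannot be told apart. The mean log2 signal over the 6 members was 7.77 and 8.09 in the Tlr4-/- and wild-type day 4 pools, against 6.26 and 7.38 in the Tlr4-/- and wild-type untreated pools. Club cell genes, which mark secretory cells of the airway, had a 7-gene mean of 10.6 and 10.8 in the Tlr4-/- and wild-type day 4 pools, against 9.90 and 11.2 in the Tlr4-/- and wild-type untreated pools. The untreated Tlr4-/- array was the lowest for 6 of the 7, all but Bpifb1, and 5 of the 7 were at least 2-fold lower in untreated Tlr4-/- than in untreated wild type. After bleomycin 6 of the 7 were higher in Tlr4-/- (median 0.55) and 0 of 7 in wild type (median -0.38). The limma average over both genotypes, in which such opposite differences cancel, called 0 of 7, with 1 of 7 at an unadjusted p under 0.05. The secretory gene Bpifa1 read 10.17 and 10.44 at day 4 in Tlr4-/- and wild type, and 8.69 and 10.52 untreated. Of 7 ciliated cell genes, 5 were higher after bleomycin in Tlr4-/- (median 0.28) and 0 in wild type (median -0.29). In untreated pools 6 of the 7 were lower in Tlr4-/-, as were 8428 of all 18193 genes. Of the 5 past the filter, limma called 2 lower in the average over both genotypes. These were Dynlrb2 and Tppp3, the only 2 of the 7 that were lower in both genotypes.

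Alveolar type I cell genes had 8-gene means of 10.05 and 9.98 in the Tlr4-/- and wild-type day 4 pools, against 9.33 and 9.03 in the Tlr4-/- and wild-type untreated pools. Of the 7 past the filter 4 rose, and Pdpn, which encodes podoplanin, a surface protein of type I cells that mesothelial cells carry too, rose by 2.30 ± 0.16 (SE, limma adjusted p = 4.2e-06). Their untreated Tlr4-/- mean was above the untreated wild-type mean, unlike that of the members.

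The fibroblast list had 10-gene means of 6.78 and 6.75 in the Tlr4-/- and wild-type day 4 pools and of 6.12 and 6.17 in the untreated ones, and 7 of the 10 were higher at day 4 in both genotypes. Only 2 of the 10 passed the filter, of which Col1a1 rose by 1.52 ± 0.16 (limma adjusted p = 9.09e-05) and Dcn was higher by 0.57 ± 0.17 without passing (adjusted p = 0.0545). Below the filter, Col3a1 was higher by 1.73 in both genotypes. Fn1 was higher by 1.94 in Tlr4-/- and 1.26 in wild type, and Col1a2 by 1.045 in Tlr4-/- and 1.24 in wild type. Thy1 was lower at day 4 by 1.25 in Tlr4-/- and higher by 0.06 in wild type, while over the 4 arrays Pdgfra lay between 5.56 and 5.81, Pdgfrb between 5.71 and 5.97, Tcf21 between 4.31 and 4.66 and Lum between 4.34 and 4.63. Macrophage and leukocyte genes had 12-gene means of 8.98 and 8.69 in the Tlr4-/- and wild-type day 4 pools and of 7.29 and 7.19 in the untreated ones, and 10 of the 11 past the filter rose. Among these, C1qa, C1qc and Itgax read below the filter of 7.05 on both untreated arrays. They passed it only through the day 4 arrays, so that count is no independent evidence. Endothelial and smooth muscle means varied by 0.29 and 0.12 over the arrays, with 1 of 8 and 1 of 5 genes past the filter. Of the 8 endothelial genes, 4 were lower at day 4 in both genotypes and 0 were higher in both. Pecam1, below the filter, was lower by 1.09 in Tlr4-/- and 0.81 in wild type. The part of any of these cells in the mesothelial values was not tested, and neither was that of the cell sort.

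**Figure D4:**
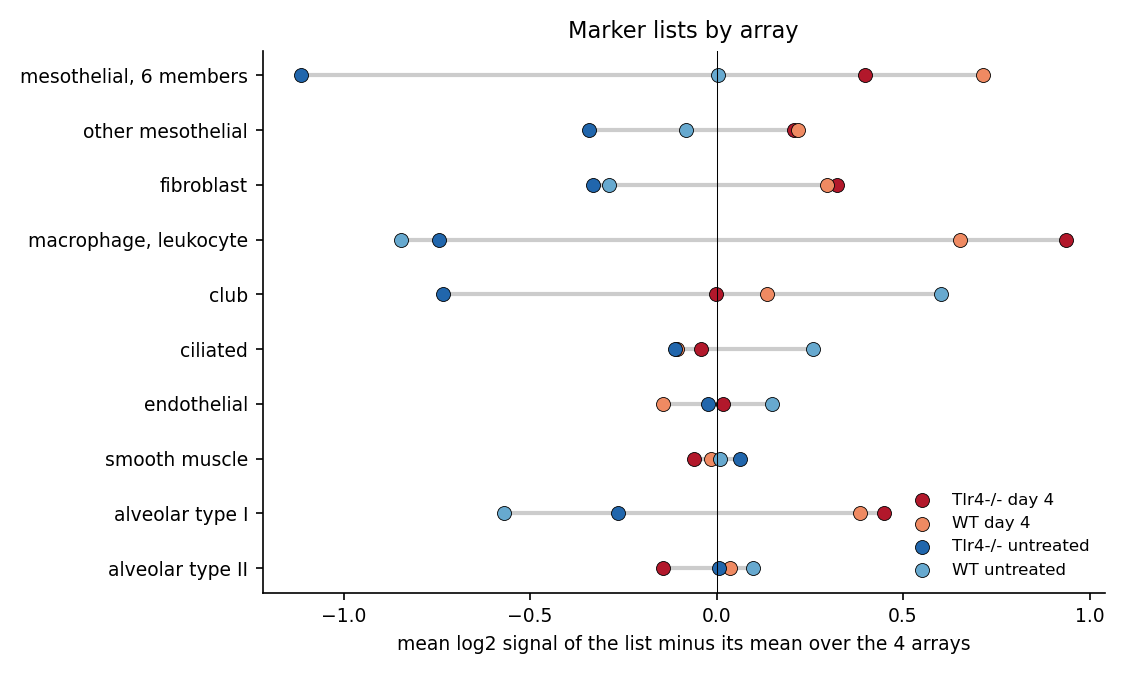
Mean log2 signal of each marker list on each array, less the list's own mean over the 4 arrays (horizontal axis), for 10 lists (vertical axis); each point is 1 array. The 6 members span 1.83 between untreated Tlr4-/- and wild type at day 4, while the AEC2 list, with 5 of its 9 genes among the brightest on the array, spans 0.24.

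Among the other genes past the filter, 5 lay nearest to the mean profile of Gpm6a, Upk3b, Msln and Igfbp5, by the Euclidean distance between 4 mean-centred values. The nearest was Serping1, the C1 inhibitor gene, at a distance of 0.51. It read 9.21 and 9.37 in the Tlr4-/- and wild-type day 4 pools and 7.09 and 8.08 in the Tlr4-/- and wild-type untreated pools. The peptide transporter gene Slc15a3, the lactoferrin gene Ltf, Col1a1 and Bpifa1 followed. For Msln alone the nearest were Col1a1, Ptgis, Serping1, Ajuba and Anxa8. For Igfbp5 they were Bpifa1, Slc15a3, Slurp1, Gpc3 and Ccrl2, and for Upk3b the same first 4 genes in another order, followed by Ltf. For Gpm6a they were Serping1, Col1a1, Bpifa1, Ptgis and Ear3. Likeness over 4 arrays says nothing of which cells express a gene.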

How the data were processed

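RNA of sorted AEC2 was hybridised to 4 Affymetrix 3' arrays, 1 pool of 4 to 5 mice per group. cDNA was amplified with an Ovation Pico WT kit and biotin labelled, per the labels' protocols. The authors deposited 1 value per probe set, read here as log2 signals from their range and near-equal quantiles; the sources used here name no log base, software, scaling or detection calls. The number of arrays limits the precision.

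Of 45101 probe sets, 64 controls were left out, 34945 had 1 symbol, 932 had several and 9160 had none. Symbols were updated through Entrez identifiers in RefSeq (34741 matched). Probe sets were averaged to 18193 genes, and 9096 with a mean above the median gene were tested in R 4.3.3 with limma 3.58.1 (additive model, 1 residual degree of freedom, eBayes without trend), with Benjamini-Hochberg adjustment over all of them and a threshold of 0.05. Unequal responses of the genotypes count as error in this model. On simulated data the fit recovered known effects, but false calls exceeded the threshold in most runs.

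The 6 genes and all lists were chosen with earlier results of these data known, so their calls are no independent evidence. Named genes are the members, up to 4 of each other list by size of effect with a few more given as examples, and the 5 nearest in profile to the members' mean and to each member past the filter, leaving out predicted and Y-linked genes. Alternatives were quantile normalization, median centring, other filters, the brightest probe set or each alone, eBayes with trend, the other factor left out, and leaving out each array.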

Additional observations from a re-analysis of the deposited data

Results flagged for a closer look

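Cldn15, a claudin of the other mesothelial genes, was higher after bleomycin by 0.35 in Tlr4-/- and lower in wild type (-0.54), each beyond the spread of 0.23. The difference rests on 1 array per group and was not tested.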

How the results depend on the processing

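The number of members called higher after bleomycin was 4 under quantile normalization, median centring and eBayes with trend, 4 with each probe set on its own where a member counts if any of its probe sets passes (1 of 2 for Igfbp5 did not, 0.73, adjusted p = 0.0807), and 5 with a filter at the 25th percentile, where Upk1b was called. It was 1, which was Msln, without a filter, with the brightest probe set per gene and with genotype left out. Leaving out each array in turn gave 0 to 4 calls, and the 3 arrays left have 1 residual degree of freedom with the other factor ignored. No member was called for genotype under any alternative (0 calls). With 1 array left out, the bleomycin fit sets unequal shares of the genotypes against each other and so mixes treatment with genotype. In the same way, the genotype fit sets unequal shares of day 4 and untreated arrays against each other, so its values mix genotype with treatment and say nothing of stability. They ranged between -2.64 and 0.13 for Gpm6a, -1.39 and 0.47 for Msln, -1.82 and -0.20 for Upk3b and -1.72 and -0.36 for Igfbp5, with the upper values without the untreated Tlr4-/- array and a Msln value of 0.09 without the wild-type day 4 array. The day 4 genotype difference of Upk1b was 0.23 by one _x_at probe set, and its difference in response -0.078 by another probe set. The bleomycin difference of every member stayed positive in all alternatives run. The cause of the other changes was not tested. Without detection calls, Wt1 cannot be told from background.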
